A study of Homo sapiens with 10 samples.

Results

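Serum starvation was compared with culture in 10% serum in LoVo cells, a human line from a colon adenocarcinoma. The comparison took 6 of the 10 arrays of the series by their labels, 3 of control cells in medium with 10% fetal bovine serum (C) and 3 of cells held for 96 h in medium without serum (SS). The other 4 arrays, of starved cells that also received 10 μM asymmetric dimethylarginine, served in the fit to estimate the spread between arrays and were no side of the comparison. The 6 arrays used here carried no added compound, and all came from the same line, so the results describe 1 line at 1 time. The question was which genes of these cells differed after this time without serum. Every gene named by a probe set with 1 symbol was a member, which gave 19775 genes. Of these, 12296 had a mean signal of at least 84.5, the median over the probe sets, and were tested, while the other 7479 were dimmer than this and got no test.

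Serum brings growth factors, insulin-like factors, lipids bound to lipoproteins, iron bound to transferrin and other nutrients to cells in culture. Without it, cultured cells generally leave the cell cycle, cut back the making of ribosomes and proteins, and turn to their own synthesis of lipids and to the breakdown of their own material. Transcription factors that growth factor signalling holds in check, such as those of the FOXO family, then become active. The groups of genes below follow this order, from division to biosynthesis, nutrients, signals and differentiation.

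Each probe set had an intensity that the authors computed with MAS 5.0, given here as the signal, and differences are on the log2 scale, serum-free minus 10% serum. A gene is said to have risen or fallen where the adjusted p from limma was under 0.01 and the fold at least 1.2. The arrays were scaled to the same trimmed mean, but the median signal was 60.6 to 73.1 in control cells and 87.4 to 90.6 in serum-starved cells. Centring each array on its median lowered every log2 difference by 0.39, and the median over all tested genes was 0.07 as deposited, -0.04 with quantile normalization and -0.32 with centred arrays. For this reason the counts of a list are also given with centred arrays wherever these moved the split between rises and falls by over 10 percentage points, turned the sign of the median or moved the larger count by over 1.5 times, and likewise with quantile normalization. Both control probe sets of 28S ribosomal RNA were brighter in serum-starved cells, the 5′ one at 501 to 634 in control and 1345 to 2014 in serum-starved cells and the middle one at 488 to 566 and 1783 to 3023, and the ratio of the 3′ to the 5′ probe set of ACTB was 1.01 to 1.08 and 1.13 to 1.23. The part of these in the results was not tested. The background level of an array was the 95th percentile of 27 probe sets for bacterial RNA. All 13 markers of colon epithelium lay above it on all 6 arrays, with summed signals of 95360 to 96270 in control and 132500 to 151500 in serum-starved cells. Of 9 markers of fibroblasts, 4 lay above it on all control and 3 on all serum-starved arrays, with summed signals of 877 to 1024 and 840 to 999, and PDGFRB and PDGFRA lay under it throughout. Of 5 markers of endothelium 1 did, with sums of 264 to 299 and 272 to 423 and KDR under it throughout. Of the 3 markers of blood and serum with a probe set 1 did, with sums of 202 to 349 and 305 to 316 and ALB under it throughout. Of the 5 leukocyte markers with a probe set, 2 did in control and 3 in serum-starved cells, with PTPRC and CD14 under it throughout, and their sum went from 562 to 832 up to 4108 to 4755. In this sum LYZ, which goblet and Paneth cells express too, gave 602, 379 and 576 and 3845, 4534 and 4237. The part of these cell types in the results was not tested.

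Most of the tested genes differed between starved and control cells. In all 3775 rose, which is 30.7% of the 12296, and 3380 fell, which is 27.5%, so 58.2% were called in either direction. With quantile normalization 3387 rose (27.5%) and 3533 fell (28.7%), and with centred arrays 2054 (16.7%) and 5184 (42.2%). Under all 3 scalings 2021 rose and 3209 fell, and no gene called as deposited was called in the other direction with either alternative. The groups did not overlap for 38.3% of the genes in the upward and 33.5% in the downward direction, or 71.8% in all. Fitted differences of at least 3 were counted in 93 rises and 26 falls, of which 41 and 13 were measured above background on all 6 arrays, while 2122 rose and 2166 fell by less than 1. Of the rises, 317 had a mean control signal under the filter of 84.5, and of the falls, 90 had a mean serum-starved signal under it, so they passed the filter through the brighter arrays. Shares near 30.7% and 27.5% are no result about a list. The plot of difference against level shows both tails.

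**Figure D1:**
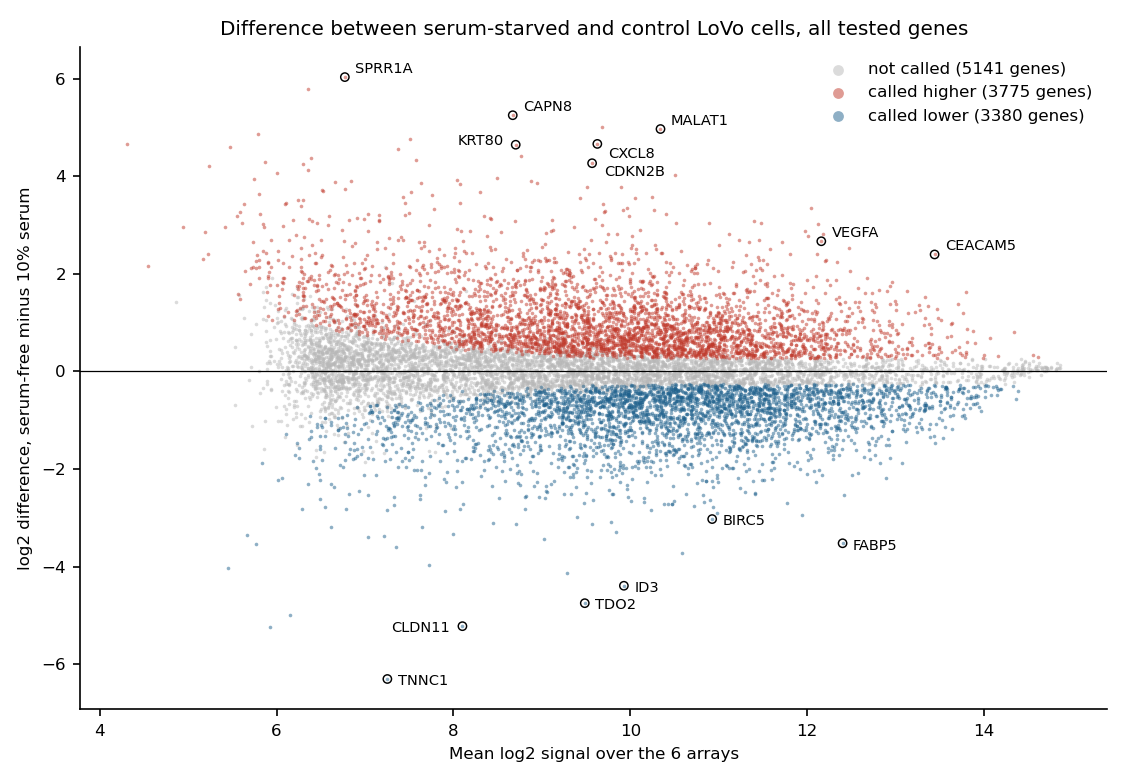
Each point is 1 of the 12296 tested genes, with the mean log2 signal over the 6 arrays on the horizontal axis and the log2 difference, serum-free minus 10% serum, on the vertical axis, in red where the gene rose and in blue where it fell. Among genes above background on all 6 arrays the rises reach 5.25 at CAPN8 and the falls -4.75 at TDO2. The control signals of CAPN8 lay under the filter, so it was tested through the serum-starved arrays. Points beyond 5.25 and -4.75, such as SPRR1A and TNNC1, hold signals under background and are not measured differences.

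A large fall at a high level was that of FABP5, a carrier of fatty acids in the cytosol. FABP5 had signals of 19197, 17600 and 18252 in control cells and 1806, 1540 and 1462 in serum-starved cells, a log2 difference of -3.52 (adjusted p = 5.96e-13, standard error 0.088). GJA1, the gap junction protein connexin 43, had signals of 1807, 1692 and 1647 in control cells and 184, 162 and 135 in serum-starved cells, a log2 difference of -3.43 (adjusted p = 6.44e-12, standard error 0.11). The largest falls were named from genes whose groups did not overlap, as in 71.8% of all tested genes, so the gap between groups adds nothing to these calls. The retinoic acid oxidase CYP26A1 fell from 817, 836 and 855 to 21.3, 93.7 and 75.5, of which 1 serum-starved array lay under the background level. HOXD13, a homeobox factor of the posterior body, and PYCR3, an enzyme of proline synthesis, lay under the background level on all 3 serum-starved arrays and were at least 8.17-fold and at least 7.55-fold lower there, both measured well above it in control cells, and TNNC1, a troponin, was at least 27.6-fold lower in the same way.

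Among the largest rises, CAPN8, a calpain of the gastrointestinal tract, had signals of 74.7, 54.8 and 70.6 in control cells and 2475, 2467 and 2596 in serum-starved cells, a log2 difference of 5.25 (adjusted p = 2.99e-13, standard error 0.11). Every control signal of CAPN8 lay under the filter, so it was tested through the brighter serum-starved arrays. On control array 1 it was only just above that array's background level of 70.2. Control arrays 2 and 3 were further above theirs. The nuclear RNA MALAT1 had signals of 220, 236 and 241 in control cells and 7103, 7234 and 7424 in serum-starved cells, a log2 difference of 4.96 (adjusted p = 9.16e-16, standard error 0.064), and its other probe sets over the filter rose by 1.41 to 4.57. DHRS9, a dehydrogenase of retinol, rose by 2.69 in its probe set 219799_s_at, the one above background on all control arrays, from 140, 69.9 and 117 to 637, 725 and 667. TCHH, the hair follicle protein trichohyalin, lay under the background level on all 3 control arrays and was at least 8.06-fold higher in serum-starved cells. The chemokine PPBP was at least 12.8-fold higher, from signals of 668, 656 and 506 in serum-starved cells against control signals that were all under the background level.

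Nearly all genes of the cell cycle fell, both those of DNA synthesis and those of mitosis. Of the 42 G1/S-phase genes listed, 41 were tested, and 1 rose and 39 fell (median log2 difference -1.75), and of the 54 tested G2/M-phase genes, 0 rose (0 at an unadjusted p under 0.05) and 52 fell (median log2 difference -1.60). In the first, PCNA, the clamp that holds DNA polymerase, had signals of 10423, 10121 and 10102 in control cells and 5977, 6002 and 5889 in serum-starved cells, a log2 difference of -0.78 (adjusted p = 4.87e-09, standard error 0.051), and so did not fall as far as most. MCM2, of the helicase that opens DNA, had signals of 4302, 4562 and 4244 in control cells and 763, 704 and 794 in serum-starved cells, a log2 difference of -2.54 (adjusted p = 1.71e-12, standard error 0.074). E2F8, a repressor among the E2F factors, fell the furthest of this block, from 1051, 1035 and 979 to 114, 148 and 101. CASP8AP2 was the gene of the block that rose, a log2 difference of 0.49 (adjusted p = 0.000106, standard error 0.084), which was not called with centred arrays. In the second block the chromosomal passenger BIRC5 had signals of 5537, 5516 and 5612 in control cells and 688, 674 and 684 in serum-starved cells, a log2 difference of -3.03 (adjusted p = 2.99e-13, standard error 0.066), and the kinase CDK1, which drives mitosis, had signals of 8575, 9858 and 9697 in control cells and 2663, 3493 and 3237 in serum-starved cells, a log2 difference of -1.59 (adjusted p = 3.15e-07, standard error 0.15). The groups did not overlap in either gene, as in 71.8% of all tested genes. In a bulk culture fewer cells in a phase and less RNA per cell cannot be told apart.

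The promoters of these genes shared sequence letters that the lists did not use. Genes of mitosis often carry a cell cycle homology region (CHR, TTTGAA) and those of DNA synthesis an E2F site, searched as GCGGGAA, while both often carry CCAAT. In the 250 bases before the start of the gene in RefSeq, on both strands, TTTGAA stood in 24 of the 45 G2/M-phase genes with a promoter in the table, or 53.3%, against 2 of 32 G1/S-phase genes (6.25%) and 8.55% of the 10029 tested genes with one. GCGGGAA stood in 14 of 32 G1/S-phase genes (43.8%), 3 of 45 G2/M-phase genes (6.67%) and 9.08% of the tested genes. CCAAT stood in 68.8% and 68.9% of these lists and in 34.9% of the tested genes. In all 27305 promoters of the table the shares were 13.6%, 5.59% and 33.0%. Over the 2868 genes that fell and had a promoter in the table they were 9.41%, 11.5% and 38.4%, so the high shares belong to the lists rather than to falls in general. None of the motifs contains another. Within the G2/M-phase list, genes with TTTGAA had a median log2 difference of -1.46 and those without it -1.50, so these letters did not sort the members by size of fall. For CCAAT the medians were -1.59 with and -1.25 without it in this list, and -1.72 and -1.60 in the G1/S-phase list. For GCGGGAA in the G1/S-phase list they were -1.60 and -1.74. None of these splits was tested. The following 120 bases lie just upstream of the start of 5 genes of both lists, chosen for the largest falls among members with the list's motif in this stretch. Capitals mark TTTGAA in the first 3 and GCGGGAA in the last 2, and also CCAAT in the first 4, in either orientation.
CDC20: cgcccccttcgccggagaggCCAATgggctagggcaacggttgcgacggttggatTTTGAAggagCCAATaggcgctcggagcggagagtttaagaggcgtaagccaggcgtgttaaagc
DLGAP5: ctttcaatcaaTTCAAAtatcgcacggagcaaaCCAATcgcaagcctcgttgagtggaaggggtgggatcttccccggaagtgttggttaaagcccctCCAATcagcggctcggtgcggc
KIF23: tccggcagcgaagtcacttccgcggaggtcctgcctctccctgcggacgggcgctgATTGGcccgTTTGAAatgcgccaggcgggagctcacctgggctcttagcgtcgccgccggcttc
UHRF1: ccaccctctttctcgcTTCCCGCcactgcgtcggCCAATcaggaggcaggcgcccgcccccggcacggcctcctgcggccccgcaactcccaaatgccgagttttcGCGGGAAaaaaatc
GINS2: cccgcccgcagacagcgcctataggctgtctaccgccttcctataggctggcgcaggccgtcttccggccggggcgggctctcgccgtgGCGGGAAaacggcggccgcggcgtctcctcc
CDC20, which activates the complex that ends metaphase, lies at chr1:43358861-43358980 on the plus strand and had signals of 5275, 5728 and 5608 in control cells and 708, 697 and 830 in serum-starved cells. DLGAP5, a protein of the spindle, lies at chr14:55191586-55191705 on the minus strand, and KIF23, a kinesin of cytokinesis, at chr15:69414229-69414348 on the plus strand, with log2 differences of -2.72 and -2.43. UHRF1, which brings the maintenance methyltransferase to new DNA, lies at chr19:4909381-4909500 on the plus strand and had signals of 3442, 3104 and 3183 in control cells and 488, 410 and 455 in serum-starved cells. GINS2, of the replicative helicase, lies at chr16:85688955-85689074 on the minus strand and fell (log2 difference -2.71). All coordinates are on GRCh38.p14. A match of letters is a description and shows no binding.

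The structures that hold and copy chromatin fell with these genes. Of the 20 tested cohesin and condensin subunits, 2 rose and 13 fell (median log2 difference -0.72). The falls included the condensin subunit NCAPH (-2.35), whereas STAG1 of cohesin had a log2 difference of 0.10 and did not pass the test. Among 19 tested genes for histone chaperones and DNA methylation, 1 rose and 13 fell (median log2 difference -0.97). DNMT1, which copies methylation to new strands, fell (log2 difference -1.02), while DNMT3A, which methylates DNA afresh, had a log2 difference of 0.29 and did not pass. TET3, which oxidizes methylcytosine, rose by a log2 difference of 1.28.

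Of the 19 genes for CDK inhibitors, pocket proteins and G1 cyclins listed, 18 were tested, and 9 rose and 6 fell (median log2 difference 0.23, or 4 and 8 with a median of -0.16 with centred arrays). CDKN2B, an inhibitor of the cyclin D kinases, had signals of 189, 156 and 176 in control cells and 3546, 3194 and 3255 in serum-starved cells, a log2 difference of 4.26 (adjusted p = 5.04e-13, standard error 0.1). CDKN1A, the inhibitor p21, had signals of 2043, 1989 and 1722 in control cells and 6918, 6053 and 7124 in serum-starved cells, a log2 difference of 1.80 (adjusted p = 1.24e-10, standard error 0.083), and CDKN1C, or p57, rose by a log2 difference of 1.50. CDKN1B, or p27, had signals of 4646, 4329 and 4730 in control cells and 5993, 5956 and 5523 in serum-starved cells, and its rise of 0.35 was not called with centred arrays. CDK4, the kinase these proteins inhibit, fell from 12638, 12824 and 12136 to 4767, 4587 and 5044. Among the 12 genes of the MYC, MAX and MXD network listed, 11 were tested, and 4 rose and 4 fell (median log2 difference -0.01, or 5 and 4 with a median of 0.09 with quantile normalization, or 3 and 6 with a median of -0.40 with centred arrays). MYC itself fell (log2 difference -0.56), from 5837, 6190 and 6988 to 4377, 4145 and 4316, its relative MYCN at -2.13, and the repressor MXD1, which takes MAX away from MYC, rose from 296, 341 and 301 to 3270, 3199 and 3058, a log2 difference of 3.35 (adjusted p = 4.39e-13, standard error 0.08).

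**Figure D2:**
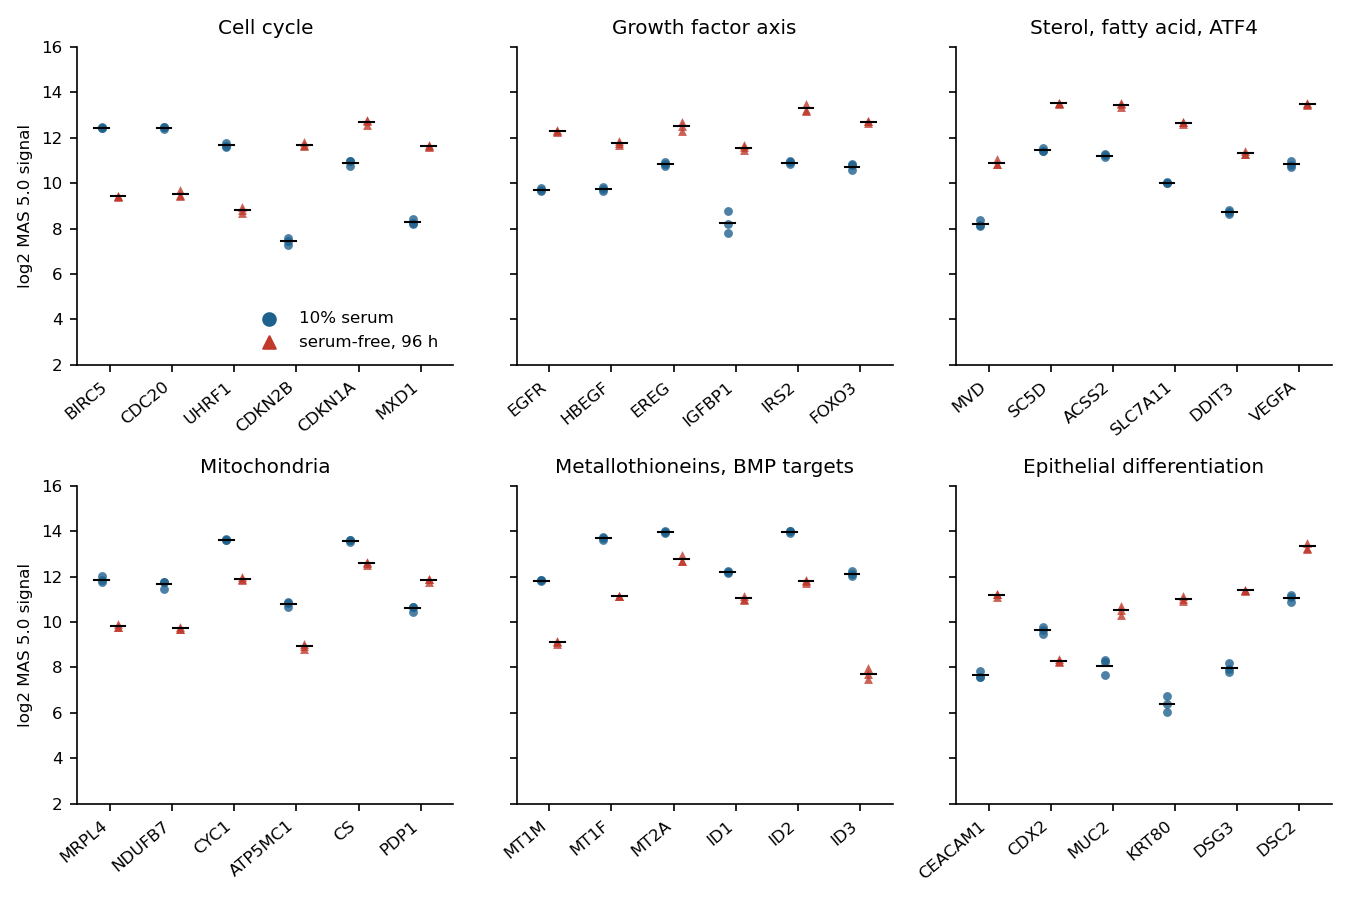
Log2 MAS 5.0 signal of 36 genes, with 1 point per array, blue circles for 10% serum, red triangles for serum-free medium and a bar at the mean of each 3 arrays. The genes were drawn from those whose groups do not overlap, as in 71.8% of all tested genes, with BIRC5 falling from 5537, 5516 and 5612 to 688, 674 and 684 and CDKN2B rising from 189, 156 and 176 to 3546, 3194 and 3255.

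With signals as deposited, most ribosomal proteins of mitochondria fell and those of the cytosol did not pass the test. Of the 54 ribosomal proteins of the cytosol listed, 40 were tested, and 0 rose (2 at an unadjusted p under 0.05) and 0 fell (1 at an unadjusted p under 0.05, median log2 difference 0.06, or 0 and 0 with a median of -0.01 with quantile normalization, or 0 and 34 with a median of -0.33 with centred arrays), at signals that are near the top of the range of the arrays. RPS6, the target of S6 kinase, had signals of 29621, 26597 and 28623 in control cells and 28147, 27147 and 32690 in serum-starved cells, with overlapping groups. Among the 62 ribosomal proteins of mitochondria listed, 61 were tested, and 1 rose and 56 fell (median log2 difference -0.91). MRPL4 had signals of 3692, 4150 and 3434 in control cells and 888, 871 and 978 in serum-starved cells, a log2 difference of -2.04 (adjusted p = 8.19e-10, standard error 0.11), and MRPL12, which also binds the mitochondrial RNA polymerase, a log2 difference of -1.63 (adjusted p = 3.53e-08, standard error 0.13). MRPS6 was the member that rose, from 5462, 5830 and 4999 to 10802, 10559 and 12173. With quantile normalization 56 mitochondrial members fell, while centring lowers every difference and so could not turn a fall. Whether the signal of the cytosolic members is limited at the top of the scale was not tested.

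Of the 37 translation initiation factors listed, 33 were tested, and 1 rose and 15 fell (median log2 difference -0.25, or 0 and 28 with a median of -0.64 with centred arrays). EIF2B3, of the exchange factor for EIF2, fell (log2 difference -1.39), EIF5A at -1.19 and the cap-binding protein EIF4E at -0.74. Among the 23 cytosolic aminoacyl-tRNA synthetases listed, 18 were tested, and 4 rose and 7 fell (median log2 difference -0.12, or 7 and 6 with a median of 0.00 with quantile normalization, or 3 and 11 with a median of -0.51 with centred arrays). AARS1, for alanine, rose from 2844, 3080 and 3132 to 5695, 5991 and 6873 and VARS1, for valine, fell from 2191, 2309 and 2019 to 561, 642 and 728, so enzymes of 1 function went opposite ways. Of the 28 chaperonin and heat shock proteins listed, 24 were tested, and 0 rose (0 at an unadjusted p under 0.05) and 19 fell (median log2 difference -0.54). The falls were led by TRAP1, the HSP90 of mitochondria (-1.87), STIP1, which joins HSP70 to HSP90 (-1.53), and HSPE1, the lid of the mitochondrial chaperonin (-1.33), and HSP90AA1 fell (log2 difference -0.39). Among the 34 proteasome subunits listed, 30 were tested, and 1 rose and 29 fell (median log2 difference -0.61). PSMC3, an ATPase of the base, had signals of 5106, 5041 and 5359 in control cells and 1678, 1819 and 2034 in serum-starved cells, a log2 difference of -1.49 (adjusted p = 8.96e-10, standard error 0.083), while PSME4, an activator of the proteasome, rose by a log2 difference of 0.52, which was not called with centred arrays.

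The energy genes of mitochondria mostly fell. Of the 38 genes of respiratory complex I listed, 33 were tested, and 0 rose (0 at an unadjusted p under 0.05) and 32 fell (median log2 difference -0.84). NDUFB7 had signals of 3447, 3516 and 2853 in control cells and 820, 876 and 833 in serum-starved cells, a log2 difference of -1.95 (adjusted p = 9.84e-11, standard error 0.087), and the smallest difference was that of NDUFV3 (-0.26), which did not pass the test. Among the 27 genes of complexes III and IV listed, 25 were tested, and 1 rose and 18 fell (median log2 difference -0.52), and of the 16 tested genes of ATP synthase, 1 rose and 14 fell (median log2 difference -0.68). Cytochrome c1, encoded by CYC1, had signals of 12401, 12670 and 12837 in control cells and 3715, 3816 and 4030 in serum-starved cells, a log2 difference of -1.71 (adjusted p = 2.4e-11, standard error 0.066). ATP5MC1, a subunit of the membrane ring of ATP synthase, fell (log2 difference -1.86). The 2 rises of these lists were COX17 and ATP5MF, each read by a probe set under the background level on all 3 control arrays. They were at least 2.78-fold and at least 3.78-fold higher in serum-starved cells. Among the 36 genes of pyruvate entry and the TCA cycle listed, 32 were tested, and 2 rose and 23 fell (median log2 difference -0.72). The citrate synthase CS had signals of 12543, 12006 and 12560 in control cells and 6293, 5863 and 6361 in serum-starved cells, a log2 difference of -1.0 (adjusted p = 1.38e-08, standard error 0.072), and the transaminase GOT2 fell (log2 difference -1.11). PDP1, the phosphatase that switches pyruvate dehydrogenase on, rose by a log2 difference of 1.25.

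Glycolysis was mixed. Of the 24 genes of glycolysis and lactate listed, 21 were tested, and 4 rose and 9 fell (median log2 difference -0.26, or 3 and 16 with a median of -0.65 with centred arrays). GAPDH had signals of 19945, 19125 and 19937 in control cells and 18356, 18382 and 22375 in serum-starved cells, with overlapping groups, while the liver-type phosphofructokinase PFKL fell from 2159, 2407 and 2135 to 830, 714 and 848. PFKFB2, whose product drives phosphofructokinase, rose from 324, 298 and 343 to 1248, 1312 and 1207, ENO2 by 1.60 and the glucose transporter SLC2A1 by 1.26. Among the 7 genes of the pentose phosphate pathway listed, 6 were tested, and 0 rose (0 at an unadjusted p under 0.05) and 3 fell (median log2 difference -0.18, or 0 and 5 with a median of -0.57 with centred arrays), RPIA at -1.37 and TALDO1 at -1.24 among the falls, both of the branch that makes ribose. Of the 32 genes of fatty acid oxidation and lipid droplets listed, 28 were tested, and 5 rose and 14 fell (median log2 difference -0.32, or 6 and 10 with a median of -0.24 with quantile normalization). ETFB, which passes electrons from fatty acids to the respiratory chain, fell (log2 difference -1.66) and HADH, a dehydrogenase of the pathway, at -1.37.

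Genes of cholesterol synthesis mostly rose. Among the 26 genes of cholesterol synthesis and uptake listed, 20 were tested, and 16 rose and 1 fell (median log2 difference 0.73, or 11 and 3 with a median of 0.34 with centred arrays). HMGCS1, which starts the pathway, had signals of 3499, 3881 and 4221 in control cells and 7378, 7477 and 9016 in serum-starved cells, a log2 difference of 1.04 (adjusted p = 1.39e-07, standard error 0.093). MVD, a decarboxylase of the mevalonate steps, had signals of 331, 273 and 289 in control cells and 1818, 1840 and 2116 in serum-starved cells, a log2 difference of 2.69 (adjusted p = 2.23e-11, standard error 0.1), and SC5D, of the last steps, had signals of 2728, 2748 and 2969 in control cells and 11332, 12004 and 11930 in serum-starved cells, a log2 difference of 2.06 (adjusted p = 7.37e-13, standard error 0.053). Groups were apart in each of them, as in 71.8% of all tested genes. STARD4, which carries sterol between membranes, rose by a log2 difference of 1.61, and INSIG1, which holds the sterol sensor back, by 0.99. PMVK, the enzyme just before MVD, fell (log2 difference -1.19), from 1207, 1177 and 1030 to 418, 525 and 562. Of the 12 genes of cholesterol efflux, mostly targets of the LXR sterol receptors, listed, 8 were tested, and 2 rose and 2 fell (median log2 difference 0.27, or 0 and 2 with a median of -0.12 with centred arrays). Each share is 25%, close to the 30.7% and 27.5% of all tested genes. SCARB1, a receptor for high density lipoprotein, fell (log2 difference -1.26). Among the 24 genes of fatty acid synthesis and desaturation listed, 20 were tested, and 11 rose and 3 fell (median log2 difference 0.38, or 7 and 7 with a median of -0.01 with centred arrays). ACSS2, which makes acetyl-CoA from acetate, had signals of 2265, 2495 and 2384 in control cells and 11386, 10510 and 11980 in serum-starved cells, a log2 difference of 2.24 (adjusted p = 2.01e-12, standard error 0.067). FASN and the desaturase SCD rose by log2 differences of 1.0 and 1.19, LPIN1 by 2.03, and the elongase ELOVL6 fell (log2 difference -1.30).

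Autophagy and the lysosome break down the cell's own material. Of the 40 tested genes of autophagy, 23 rose and 6 fell (median log2 difference 0.34, or 14 and 10 with a median of -0.05 with centred arrays). SQSTM1, the receptor p62, had signals of 4351, 4088 and 3897 in control cells and 10972, 10646 and 11606 in serum-starved cells, a log2 difference of 1.43 (adjusted p = 8.48e-11, standard error 0.063). TP53INP1 went from 384, 399 and 397 to 4344, 3676 and 3647, its relative TP53INP2 rose by a log2 difference of 2.21, the starting kinase ULK1 by 1.34 and MAP1LC3B by 0.87. ATG4C and ATG3, of the conjugation steps, fell (log2 differences -1.15 and -0.64). VMP1 was read by a probe set under the background level in all control arrays and was at least 4.45-fold higher. Among the 46 lysosomal enzymes and membrane proteins listed, 39 were tested, and 15 rose and 11 fell (median log2 difference 0.17, or 7 and 16 with a median of -0.22 with centred arrays). These are 38.5% and 28.2%, close to the 30.7% and 27.5% of all tested genes. The cholesterol exporter NPC1 had signals of 1056, 1360 and 1281 in control cells and 5974, 4986 and 6101 in serum-starved cells, a log2 difference of 2.21 (adjusted p = 6.26e-11, standard error 0.094), the membrane protein LAMP2 rose by a log2 difference of 1.74, though its probe set 200821_at had 0.01, and cathepsin S, CTSS, by 2.12, while cathepsin C, CTSC, fell (log2 difference -1.74). LAMP1 had a difference of 0.09 and did not pass the test.

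Targets of ATF4, the factor of amino acid shortage, mostly rose with signals as deposited. Of the 33 genes of the ATF4 response listed, 31 were tested, and 23 rose and 3 fell (median log2 difference 0.69, or 13 and 6 with a median of 0.30 with centred arrays). ATF4 had signals of 13742, 12652 and 11259 in control cells and 17847, 18333 and 20290 in serum-starved cells, a rise of 0.59 that was not called with centred arrays. DDIT3, a factor of prolonged stress, had signals of 401, 453 and 418 in control cells and 2742, 2487 and 2465 in serum-starved cells, a log2 difference of 2.60 (adjusted p = 1.14e-10, standard error 0.12), and SLC7A11, the cystine importer, had signals of 1045, 1017 and 1043 in control cells and 6666, 6262 and 6660 in serum-starved cells, a log2 difference of 2.66 (adjusted p = 2.99e-13, standard error 0.061). VEGFA, a growth factor of vessels, had signals of 1769, 1669 and 2034 in control cells and 11832, 11553 and 11218 in serum-starved cells, a log2 difference of 2.67 (adjusted p = 1.52e-12, standard error 0.076). PHGDH and PSAT1 of serine synthesis had log2 differences of -0.20 and 0.24 and did not pass the test.

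Among metal genes the metallothioneins fell, while the iron and heme genes held both directions. All 7 metallothioneins tested, small proteins that bind zinc and copper, fell with each of the 3 scalings. MT1M had signals of 3715, 3662 and 3540 in control cells and 580, 521 and 556 in serum-starved cells, a log2 difference of -2.72 (adjusted p = 2.41e-12, standard error 0.082), MT1F had signals of 13385, 13829 and 12435 in control cells and 2300, 2248 and 2263 in serum-starved cells, and MT2A fell least, from 16516, 16076 and 15526 to 6703, 6636 and 8073. Probe sets of metallothioneins can share sequence between family members, so their values are not independent. The zinc exporter SLC30A1 rose from 2715, 2793 and 2440 to 7279, 6946 and 7632. Over the whole list of metallothioneins and zinc transporters, 4 of 21 tested genes rose and 9 fell (median log2 difference -0.15, or 2 and 12 with a median of -0.54 with centred arrays). Among the 31 genes of iron and heme listed, 26 were tested, and 6 rose and 5 fell (median log2 difference 0.03, or 4 and 12 with a median of -0.36 with centred arrays). These are 23.1% and 19.2%, against the 30.7% and 27.5% of all tested genes. The transferrin receptor TFRC had signals of 16538, 16252 and 15942 in control cells and 15944, 14599 and 16520 in serum-starved cells, with overlapping groups, while FECH, which puts iron into heme, fell (log2 difference -1.16) and ALAS1, which starts heme synthesis, rose by a log2 difference of 1.15. LCN2, a binder of bacterial iron carriers, rose from 202, 184 and 187 to 1065, 985 and 1027.

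Genes of the growth factor and insulin pathways mostly rose. Of the 32 insulin, IGF and FOXO targets listed, 27 were tested, and 17 rose and 3 fell (median log2 difference 1.22), the highest median of the lists among tested members. Without the filter on signal the median was 0.91, under the 0.99 of ERBB receptors and ligands and the 0.95 of YAP and TEAD targets. IRS2, the adaptor of the insulin receptor, had signals of 1810, 2021 and 1943 in control cells and 9663, 9322 and 11612 in serum-starved cells, a log2 difference of 2.40 (adjusted p = 5.76e-12, standard error 0.08). IGFBP1, a binding protein of insulin-like growth factors, went from 439, 224 and 295 to 3071, 3248 and 2788, and IGFBP3 rose by a log2 difference of 2.32. FOXO3 and FOXO1 rose by log2 differences of 1.97 and 1.25, while the kinase AKT1, which keeps FOXO factors out of the nucleus, fell from 2172, 2488 and 1912 to 1007, 999 and 1124. Among the 18 ERBB receptors and ligands listed, 13 were tested, and 9 rose and 0 fell (1 at an unadjusted p under 0.05, median log2 difference 0.94, or 7 and 1 with a median of 0.55 with centred arrays). The receptor EGFR had signals of 881, 800 and 826 in control cells and 5085, 4828 and 5136 in serum-starved cells, a log2 difference of 2.59 (adjusted p = 5.85e-13, standard error 0.064). Its ligands HBEGF, EREG and TGFA rose by log2 differences of 2.02, 1.66 and 1.47, and ERRFI1, an inhibitor of the receptor, by 2.27. ERBB2 had a log2 difference of -0.20 and did not pass.

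Immediate early genes are those that serum induces within minutes to hours in resting cells. Of the 25 immediate early and AP-1 genes listed, 22 were tested, and 18 rose and 0 fell (1 at an unadjusted p under 0.05, median log2 difference 0.75, or 11 and 3 with a median of 0.37 with centred arrays). FOS had signals of 163, 187 and 180 in control cells and 293, 278 and 321 in serum-starved cells, and its rise of 0.75 was not called with quantile normalization or centred arrays, and EGR1 had a log2 difference of -0.35, which did not pass. ATF3, MAFF and ZFP36 rose by log2 differences of 2.39, 2.07 and 2.04, and JUN by 1.37. Among the 21 YAP and TEAD targets listed, 17 were tested, and 14 rose and 1 fell (median log2 difference 1.05). F3, tissue factor, had signals of 1604, 1498 and 1633 in control cells and 12596, 10350 and 9584 in serum-starved cells, a log2 difference of 2.77 (adjusted p = 7.51e-11, standard error 0.12), NT5E rose by a log2 difference of 2.02 and CCN2 by 2.11, with a wide error of 0.41. Of the 29 SRF and MRTF targets listed, 21 were tested, and 11 rose and 3 fell (median log2 difference 0.34, or 5 and 7 with a median of -0.05 with centred arrays). FHL2 rose from 2096, 2192 and 2184 to 11083, 10100 and 10428 and TAGLN2 fell from 8526, 9300 and 8312 to 2847, 2882 and 3146, and SRF itself had a log2 difference of -0.04 and did not pass.

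Genes of the NF-kB pathway, which drives inflammation, mostly rose with signals as deposited. Among the 32 genes of the NF-kB pathway and its targets listed, 25 were tested, and 16 rose and 1 fell (median log2 difference 0.64, or 11 and 3 with a median of 0.25 with centred arrays). The chemokine CXCL8 went from 151, 204 and 127 to 4468, 3704 and 3801, CXCL1 rose by a log2 difference of 2.43, and NFKBIZ, a co-activator of part of the NF-kB targets, had signals of 690, 622 and 671 in control cells and 5837, 5366 and 5147 in serum-starved cells, a log2 difference of 3.04 (adjusted p = 3e-12, standard error 0.095). PTGS2, the inducible cyclooxygenase, was the member that fell and had signals of 1139, 1207 and 1323 in control cells and 212, 205 and 198 in serum-starved cells, a log2 difference of -2.57 (adjusted p = 1.3e-10, standard error 0.12). Of the 40 interferon-stimulated genes listed, 36 were tested, and 21 rose and 5 fell (median log2 difference 0.63, or 15 and 9 with a median of 0.25 with centred arrays). OAS1, a sensor of double-stranded RNA, had signals of 772, 730 and 745 in control cells and 3219, 3572 and 3411 in serum-starved cells, a log2 difference of 2.18 (adjusted p = 4.85e-11, standard error 0.09), and IRF9, of the complex that reads interferon, rose by a log2 difference of 2.21. The membrane proteins IFITM3 and IFITM2 fell (log2 differences -1.49 and -1.40), and IFIT1 and IFIT3 had log2 differences of -0.21 and -0.22 and did not pass. Among the 22 genes of MHC class I and antigen processing listed, 20 were tested, and 6 rose and 5 fell (median log2 difference 0.25, or 0 and 8 with a median of -0.14 with centred arrays). These are 30% and 25%, close to the 30.7% and 27.5% of all tested genes. B2M, the light chain, rose from 4582, 4923 and 4518 to 7442, 7423 and 7480, which was not called with centred arrays, while the 3 subunits of the immunoproteasome fell, PSMB8 at -2.13, PSMB9 at -1.33 and PSMB10 at -1.04.

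Of the 39 enterocyte and colonocyte genes listed, 24 were tested, and 9 rose and 7 fell (median log2 difference 0.28, or 8 and 10 with a median of -0.11 with centred arrays), which is 37.5% and 29.2%, close to the 30.7% and 27.5% of all tested genes. The adhesion protein CEACAM1 had signals of 189, 189 and 227 in control cells and 2452, 2203 and 2452 in serum-starved cells, and its relative CEACAM5 went from 4320, 5347 and 4949 to 25191, 23594 and 27980. GUCA2A, the peptide guanylin, rose from 74.6, 52.9 and 71.6 to 421, 478 and 430. The intestinal homeobox factors CDX2 and CDX1 fell, CDX2 with signals of 876, 711 and 807 in control cells and 304, 315 and 328 in serum-starved cells, a log2 difference of -1.33 (adjusted p = 1.92e-08, standard error 0.099), and CDX1 at -2.04, and CA2, carbonic anhydrase 2, at -2.51. VIL1 of the brush border had a log2 difference of -0.21 and did not pass, though its probe set 205506_at fell (log2 difference -0.57). Among the 35 goblet, Paneth and mucin genes listed, 23 were tested, and 10 rose and 5 fell (median log2 difference 0.60, or 9 and 7 with a median of 0.21 with centred arrays). Without the filter 10 of the 34 members with a probe set rose and 5 fell, at a median of 0.27. MUC2, the gel mucin of the colon, had signals of 317, 305 and 201 in control cells and 1270, 1503 and 1652 in serum-starved cells, a log2 difference of 2.45 (adjusted p = 3.14e-09, standard error 0.15), TFF1 had signals of 1012, 1133 and 1173 in control cells and 7187, 7155 and 7194 in serum-starved cells, and LYZ, lysozyme, rose by a log2 difference of 3.05. AGR3 and ST6GALNAC1 fell (log2 differences -1.51 and -1.38).

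Of the 33 stem cell and Wnt target genes listed, 24 were tested, and 10 rose and 6 fell (median log2 difference 0.39, or 6 and 11 with a median of -0.00 with centred arrays). Without the filter 10 of the 30 members with a probe set rose and 5 fell, at a median of 0.03. LGR5, a receptor of crypt stem cells, had signals of 5523, 6148 and 6834 in control cells and 10770, 10890 and 11603 in serum-starved cells, a log2 difference of 0.85 (adjusted p = 5.32e-08, standard error 0.07), and RNF43, which removes Wnt receptors, rose by a log2 difference of 2.40. MYB and LEF1 fell (log2 differences -1.99 and -1.75), and AXIN2 had signals of 3098, 3036 and 2951 in control cells and 3265, 3252 and 2925 in serum-starved cells, with overlapping groups. Among the 38 BMP, ID and TGF-beta genes listed, 36 were tested, and 18 rose and 8 fell (median log2 difference 0.36, or 12 and 10 with a median of -0.03 with centred arrays). The 3 ID genes that fell, targets of BMP that block differentiation factors, were ID3 with signals of 4847, 4450 and 4124 in control cells and 209, 254 and 180 in serum-starved cells, ID2 with signals of 16660, 16471 and 15359 in control cells and 3379, 3692 and 3642 in serum-starved cells, and ID1, at -1.17. BMP2, BMP4 and BMP7 themselves rose by log2 differences of 1.07, 1.04 and 1.74, and FST, which binds activins, by 2.95. SMAD3, of the TGF-beta arm, rose by a log2 difference of 1.80.

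Keratins form the filaments of epithelial cells, and the list holds those of simple epithelium beside squamous ones, of which KRT5, KRT14, KRT4 and KRT1 were too dim to test. Of the 20 keratins listed, 10 were tested, and 8 rose and 0 fell (0 at an unadjusted p under 0.05, median log2 difference 0.88, or 5 and 0 with a median of 0.49 with centred arrays), among them KRT80 from 82.9, 106 and 66.3 to 2273, 2050 and 1945 and KRT7 by 3.29, though the probe set 1558393_at of KRT7 had 0.00, while the rise of KRT8, a main keratin of simple epithelium, was 0.32 and was not called with centred arrays. Of the 8 keratins that rose, 2 had a mean control signal under the filter. Without the filter 8 of the 15 keratins with a probe set rose, at a median of 0.32. The cornified envelope is the protein shell of squamous cells, which cover the skin and the mouth. Among the 38 cornified envelope and squamous genes listed, 21 were tested, and 16 rose and 1 fell (median log2 difference 1.04), among them 5 rises with a mean control signal under the filter. The count among tested members is partly set by the filter, and without it 16 of the 34 members with a probe set rose and 1 fell. SPRR1A had signals of 8.7, 45 and 6.3 in control cells and 1000, 858 and 804 in serum-starved cells in the probe set 213796_at, with 2 control arrays under the background level, and its probe set 214549_x_at, above background in control cells, had a log2 difference of 1.52, from 121, 88.1 and 115 to 319, 344 and 265. SPRR1B and SCEL were under it on all 3 and were at least 6.33-fold and at least 5.4-fold higher. DSG3, a desmoglein, had signals of 224, 247 and 295 in control cells and 2732, 2763 and 2646 in serum-starved cells, a log2 difference of 3.42 (adjusted p = 1.92e-12, standard error 0.1), and SPRR3 rose by a log2 difference of 3.61. The AP-1 site, searched as TGANTCA on both strands, stood in the 250 bases before the start in 6 of the 14 tested members with a promoter in the table (42.9%), against 3.83% of the tested genes, 5.02% of those that rose and 6.60% of the whole table. The 14 include SPRR1A, SPRR1B and SCEL, whose control signals all lay under the filter. These genes were tested through the serum-starved arrays, so this share depends in part on the rise and is no separate evidence. The share over members that were not tested was not counted. The 120 bases just upstream of SPRR1A, SPRR1B and SCEL are given, with the site in capitals. These had the largest fitted rises among members with the site there.
SPRR1A: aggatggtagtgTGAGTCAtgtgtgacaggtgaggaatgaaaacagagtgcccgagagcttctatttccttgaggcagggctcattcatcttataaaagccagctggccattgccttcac
SPRR1B: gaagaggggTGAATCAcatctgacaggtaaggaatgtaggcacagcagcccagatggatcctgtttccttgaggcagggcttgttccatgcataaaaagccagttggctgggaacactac
SCEL: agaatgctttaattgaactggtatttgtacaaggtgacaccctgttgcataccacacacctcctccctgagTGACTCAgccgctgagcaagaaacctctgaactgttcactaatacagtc
They lie at chr1:152983961-152984080 on the plus strand for SPRR1A, chr1:153031083-153031202 on the plus strand for SPRR1B and chr13:77535586-77535705 on the plus strand for SCEL, on GRCh38.p14. SPRR1A and SPRR1B are neighbours of 1 family, so their sequences are related and are not separate cases.

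Of the 17 S100 proteins listed, 11 were tested, and 7 rose and 0 fell (0 at an unadjusted p under 0.05, median log2 difference 0.45, or 5 and 2 with a median of 0.06 with centred arrays). S100A11 rose by a log2 difference of 1.64 and S100A2 by 1.22, and S100A3 lay under the background level on all 3 control arrays and was at least 5.45-fold higher. Among the 24 genes of claudins and tight junctions listed, 21 were tested, and 11 rose and 4 fell (median log2 difference 0.43, or 6 and 5 with a median of 0.04 with centred arrays). CLDN15, which forms a pore for cations, rose from 321, 313 and 303 to 1269, 1246 and 1212, while CLDN11 fell from 1590, 1639 and 1808 to 32.4, 40.8 and 68.9, of which 2 lay under the background level. OCLN had signals of 5466, 6269 and 6191 in control cells and 8492, 7972 and 7679 in serum-starved cells, a rise of 0.43 that was not called with centred arrays. Of the 33 extracellular proteases and inhibitors listed, 23 were tested, and 12 rose and 1 fell (median log2 difference 0.49, or 6 and 4 with a median of 0.10 with centred arrays). The urokinase PLAU rose by a log2 difference of 1.87 and its receptor PLAUR by 2.13, from 737, 651 and 666 to 3022, 3002 and 2948, and the membrane protease TMPRSS4 by 2.30.

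Enzymes that handle drugs and oxidants differed by family. Among the 37 genes for cytochromes P450, conjugation and drug efflux listed, 26 were tested, and 11 rose and 5 fell (median log2 difference 0.40, or 9 and 8 with a median of 0.01 with centred arrays). CYP3A5 lay between 124 and 183 in control cells and had 3676, 5370 and 5194 in serum-starved cells, a log2 difference of 5.01 (adjusted p = 3.03e-11, standard error 0.2), CYP3A4 rose by a log2 difference of 1.89, and the near identity of the CYP3A genes can let a probe set read more than 1 of them. The exporter ABCC3 rose by a log2 difference of 2.43 and CYP2J2 fell from 1660, 1972 and 2103 to 272, 329 and 322. CYP1A1 had a log2 difference of 0.49 and did not pass. Of the 43 glutathione, thioredoxin and NRF2 targets listed, 40 were tested, and 4 rose and 27 fell (median log2 difference -0.55). GPX1, a glutathione peroxidase, had signals of 11371, 10744 and 10734 in control cells and 4640, 5063 and 5391 in serum-starved cells, a log2 difference of -1.12 (adjusted p = 2.6e-09, standard error 0.069), and SOD1 and CAT fell (log2 differences -0.90 and -0.95). The transferases GSTM4 and GSTM1 fell (log2 differences -2.52 and -1.81), with probe sets that can read several genes of the GSTM cluster. NFE2L2, the factor NRF2, had signals of 6051, 5664 and 6076 in control cells and 6679, 6336 and 6137 in serum-starved cells, which did not pass the test.

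Among the 25 hypoxia-inducible genes listed, 23 were tested, and 13 rose and 2 fell (median log2 difference 0.59, or 10 and 7 with a median of 0.20 with centred arrays). The factor HIF1A had signals of 6810, 7807 and 6888 in control cells and 7713, 7805 and 7279 in serum-starved cells, with overlapping groups, while BHLHE40 rose by a log2 difference of 1.87 and ERO1A, which makes disulfide bonds, by 1.75. PDK1 and BNIP3, also on the list, fell (log2 differences -0.61 and -0.46), of which the call on BNIP3 was lost without C replicate 2 or 3 or SS replicate 2 or 3, at -0.41 to -0.39. Of the 37 genes of caspases, death receptors and the apoptosome listed, 31 were tested, and 9 rose and 7 fell (median log2 difference 0.06, or 8 and 14 with a median of -0.32 with centred arrays). These are 29% and 22.6%, close to the 30.7% and 27.5% of all tested genes. CASP8 fell (log2 difference -0.37) and CASP6 at -1.13, and CASP9 had a log2 difference of 0.28 and did not pass. XIAP, an inhibitor of caspases, had signals of 2464, 2298 and 2116 in control cells and 5281, 4917 and 4678 in serum-starved cells, a log2 difference of 1.11 (adjusted p = 1.25e-07, standard error 0.099), and AIFM1, a flavoprotein of mitochondria, fell from 2917, 2880 and 2818 to 1084, 944 and 1090. Among the 22 genes of the circadian clock listed, 17 were tested, and 12 rose and 0 fell (1 at an unadjusted p under 0.05, median log2 difference 0.73, or 7 and 1 with a median of 0.34 with centred arrays). Of the 12 rises, 2 had a mean control signal under the filter. Without the filter 10 of the 18 members with a probe set rose and 1 fell, at a median of 0.65. RORA, which drives BMAL1, had signals of 280, 326 and 292 in control cells and 1705, 1833 and 1549 in serum-starved cells, a log2 difference of 2.50 (adjusted p = 1.49e-10, standard error 0.12), CLOCK and NPAS2 rose by log2 differences of 1.12 and 1.63, and PER2 by 0.57, which was not called with centred arrays.

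Genes that handle RNA and the nucleus held both directions. Of the 35 genes for SR and hnRNP proteins of splicing listed, 32 were tested, and 7 rose and 21 fell (median log2 difference -0.54, or 2 and 22 with a median of -0.93 with centred arrays). Probe sets of several SR and hnRNP genes were called in opposite directions, among them SRSF1, SRSF3, SRSF7, HNRNPA2B1, HNRNPC, HNRNPD and HNRNPM. This was so in 304 of all 6148 genes with at least 2 probe sets over the filter. The counts of this list thus rest in part on the choice of probe set. The brightest probe sets of SRSF1 and HNRNPA2B1 fell (log2 differences -1.61 and -1.34), and others of both genes rose. In contrast, CLK1, a kinase of SR proteins, had signals of 607, 485 and 502 in control cells and 3187, 2965 and 2836 in serum-starved cells, a log2 difference of 2.50 (adjusted p = 2.31e-11, standard error 0.096), and CLK4 rose by a log2 difference of 1.52. Among 42 tested genes of the nuclear pore and transport, 5 rose and 27 fell (median log2 difference -0.56). RANBP1, a partner of the RAN GTPase, had signals of 14593, 13968 and 15059 in control cells and 4080, 4379 and 4263 in serum-starved cells, a log2 difference of -1.78 (adjusted p = 7.69e-11, standard error 0.077), and the importin KPNA2 fell (log2 difference -1.45). Of the 30 histone genes listed, 13 were tested, and 5 rose and 7 fell (median log2 difference -0.37). H2AX, which marks broken DNA when phosphorylated, fell from 5740, 5716 and 6418 to 1595, 1533 and 1803, and H2AC6 and H1-2, of the clustered histone genes, rose from 317, 364 and 337 to 2132, 2207 and 2026 and by 1.90. Among the 34 long non-coding RNAs listed, 15 were tested, and 10 rose and 2 fell (median log2 difference 1.0, or 7 and 3 with a median of 0.61 with centred arrays). Of the 10 rises, 2 had a mean control signal under the filter. Without the filter 10 of the 20 members with a probe set rose and 2 fell, at a median of 0.64. UCA1 rose from 214, 102 and 170 to 702, 766 and 705, TUG1 by 1.30 and GAS5, named for its accumulation in growth-arrested cells, by 1.0. DANCR fell from 8922, 9181 and 7142 to 4175, 3684 and 4352, and LINC00261 was under the background level on all 3 serum-starved arrays and was at least 3.76-fold lower there.

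**Figure D3:**
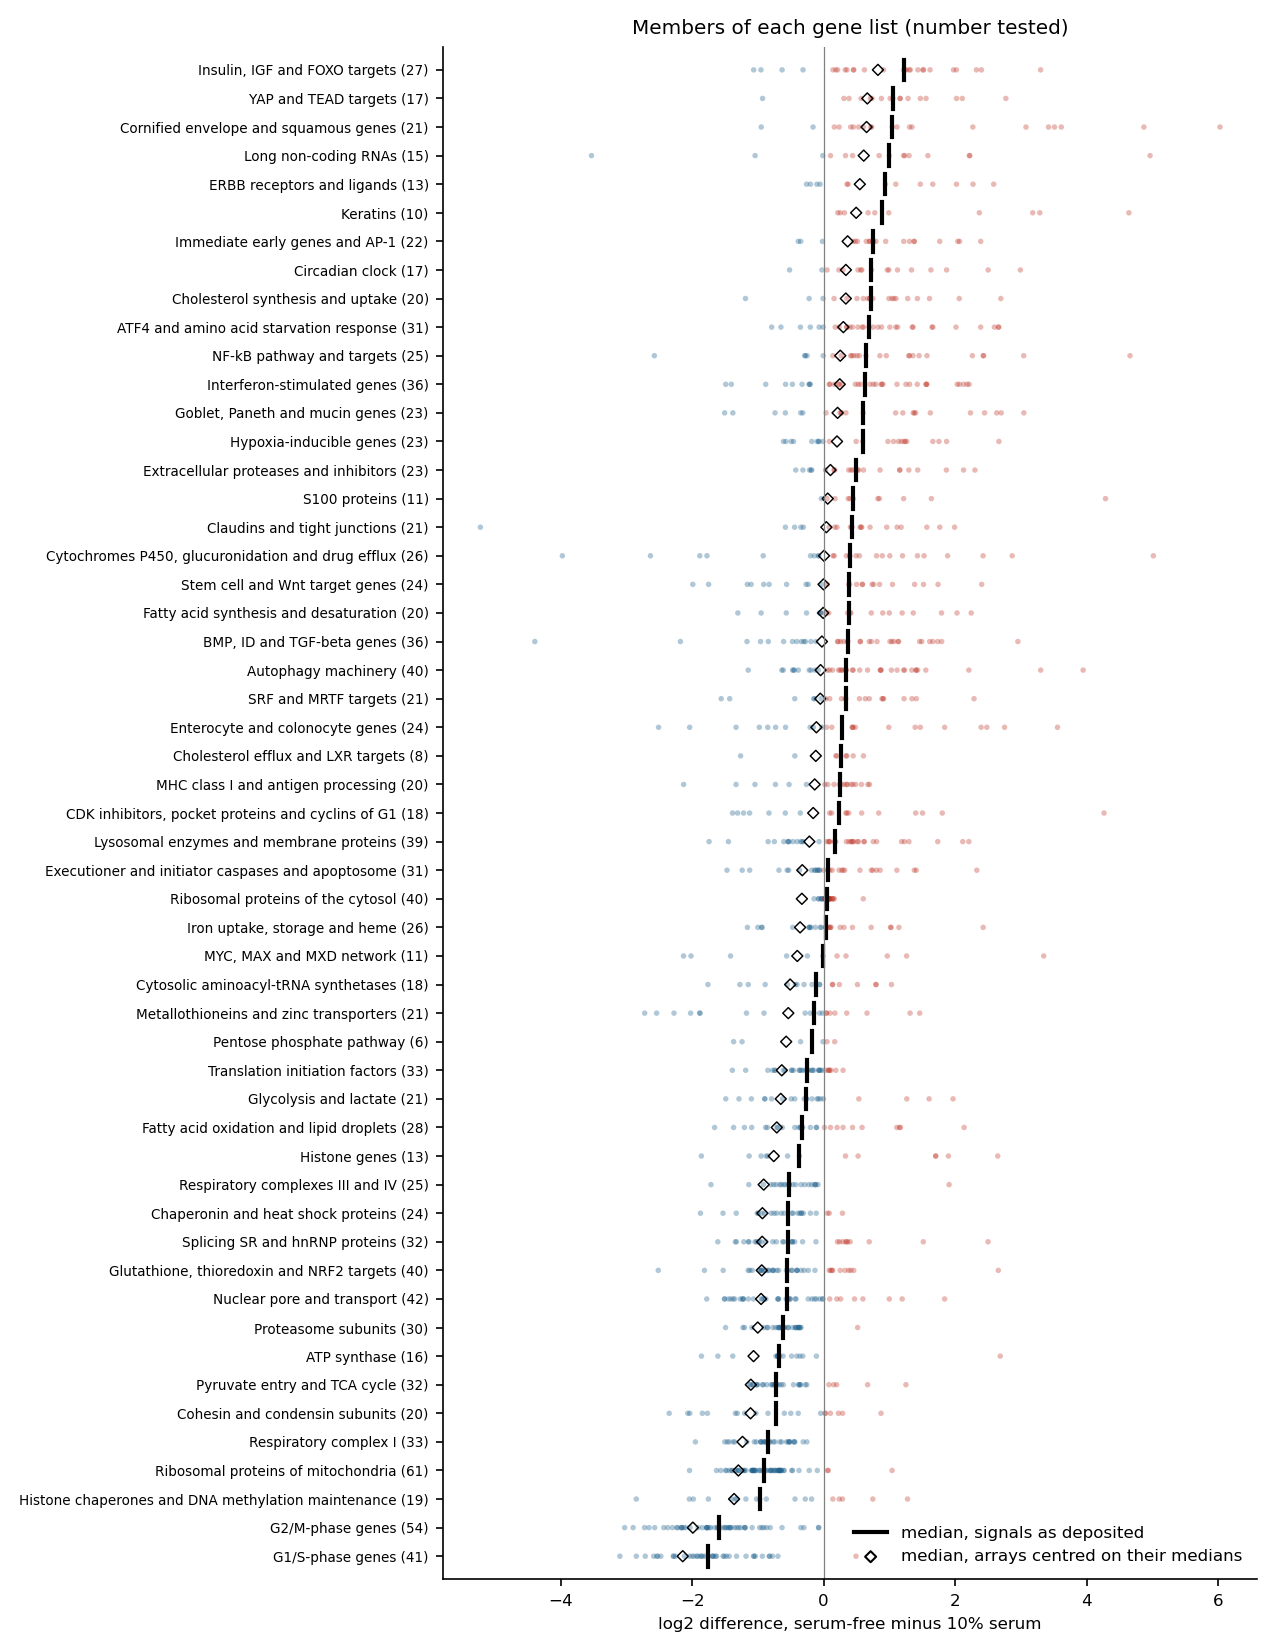
Each row is 1 gene list with the number of its tested members, each point is a member at its log2 difference, serum-free minus 10% serum (red above 0, blue under it), the black bar is the median with signals as deposited and the open diamond the median with arrays centred on their medians. The medians run from -1.75 for G1/S-phase genes to 1.22 for insulin, IGF and FOXO targets, and the lists from glutathione genes down to cell cycle genes keep a median under 0 on both scales.

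The probe sets of 1 gene did not always move together. Of 6148 genes with at least 2 probe sets over the filter, all probe sets were called in the same direction in 1788, and in 304 genes probe sets were called in opposite directions. For HNRNPD, which binds AU-rich RNA, the probe set 213359_at had 328, 315 and 316 in control cells and 4151, 4061 and 3908 in serum-starved cells, a log2 difference of 3.66, while the other 5 had between -2.61 and -0.90. For the phosphatase PTPRO, 211600_at had signals of 901, 880 and 1020 in control cells and 7504, 7866 and 8151 in serum-starved cells and 208121_s_at went from 1857, 1822 and 1688 to 220, 215 and 186. For SRSF1, 5 probe sets fell and 3 rose, the bright 201742_x_at from 9860, 10613 and 11006 to 3199, 3374 and 3755 and 226419_s_at from 151, 176 and 138 to 1324, 1263 and 1315. For CD47, the signal that stops phagocytes, 2 probe sets rose and 3 fell, and for MALSU1, a factor of the mitochondrial ribosome, 1 rose and 3 fell. The rising probe set 230516_at of MALSU1 and 213856_at of CD47 were under the background level on all control arrays, so the gaps of these genes were not measured. A gene in the counts above is represented by its brightest probe set alone. Leaving out CD47, MALSU1, NUP58 and EIF1, 105 genes named with a value were called and had at least 2 probe sets over the filter. All probe sets were called the same way in 78 of them, some were not called in 23 and at least 1 was called the other way in 4, and which transcripts the probe sets read was not tested. NUP58 and EIF1 also belong to the 304, and their values rest on the choice of probe set.

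**Figure D4:**
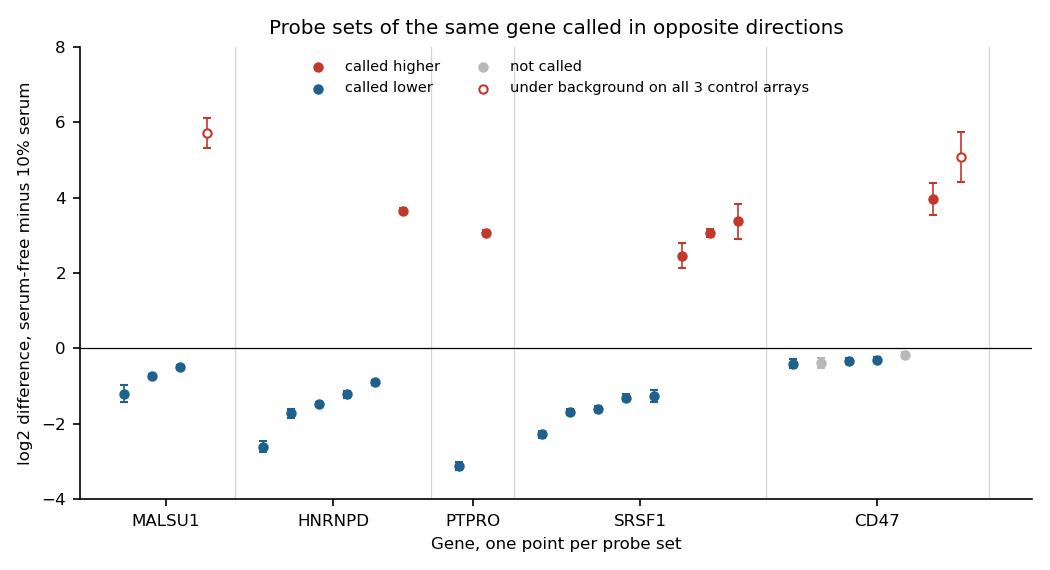
Log2 difference, serum-free minus 10% serum, of each probe set of the 5 genes with the widest fitted gap between probe sets called in opposite directions, with 1 point per probe set and bars of 1 standard error. Open points were under background on all 3 control arrays and hold only a bound, and with them the order of the genes is not a measured one. In HNRNPD the probe set at 3.66 stands against 5 at -2.61 to -0.90, and in PTPRO 1 stands at 3.07 and the other at -3.11.

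Probe sets with no single gene symbol in the annotation rose more often than they fell with signals as deposited. Of 4244 such probe sets over the filter, 38.1% rose and 13.9% fell, with a median log2 difference of 0.39, against 29.7% and 24.1% and a median of 0.09 over 23063 named ones. With centred arrays the unnamed ones held 28.1% rises and 24.7% falls and the named ones 16.5% and 38.3%. By RefSeq's gene type, 189 of 631 tested genes for long non-coding RNA rose and 46 fell, which is 7.29%, against 3492 and 3321 of 11443 protein-coding genes. The upward lean of the non-coding genes depended on the scaling, since 142 rose and 73 fell with quantile normalization, at a median of -0.01, and 119 rose and 97 fell with centred arrays. Length of the gene also went with direction among protein-coding genes, as RefSeq gives it. The genes that rose had a median length of 43.6 kb, those that fell 23.3 kb and those that did not pass the test 29.7 kb. Ordered by length into 4 groups of like size, 22.6% rose and 36.4% fell in the shortest group, up to 12.6 kb, and in the longest, over 73.6 kb, 41.2% rose and 19.5% fell. With centred arrays the rises went from 12% in the shortest to 23.1% in the longest group and the falls from 52.5% to 32.3%. Genes are not independent replicates, so no test is attached to these shares.

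**Figure D5:**
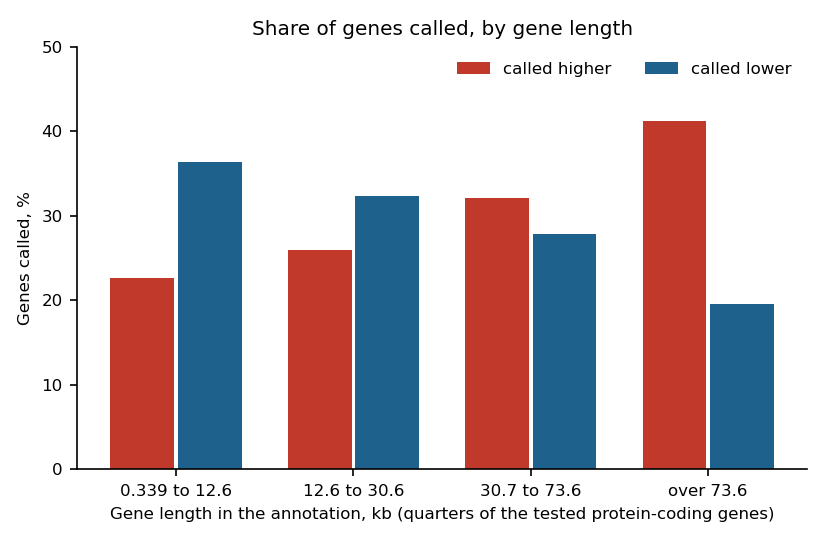
Share of tested protein-coding genes that rose (red) or fell (blue), in percent, for 4 groups of genes ordered by gene length in kb. From the shortest to the longest group the red bars go from 22.6% to 41.2% and the blue bars from 36.4% to 19.5%.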

How the data were processed

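HG-U133 Plus 2.0 arrays of Affymetrix measured the RNA of 10 LoVo samples. The deposited intensity of each probe set was computed by the authors with MAS 5.0, which corrects for background and scales each array to a common trimmed mean. Arrays were grouped by their labels. Of 54675 probe sets, 62 were controls, 41091 had 1 gene symbol in the platform annotation, 1801 several and 11721 none, and each gene was represented by its brightest probe set. The intensity was taken to log2 and fitted over all 10 arrays (control, serum-starved, and starved with asymmetric dimethylarginine) by limma 3.58.1 under R 4.3.3, with variances moderated by eBayes along a trend in intensity. Genes with a mean signal under 84.5, the median over the probe sets, were left out. p-values were adjusted by Benjamini-Hochberg over all 12296 genes, and calls needed a p under 0.01 after adjustment together with a 1.2-fold difference. These are the thresholds of the study's methods, which used SAM in place of limma. The fit was tested on simulated data with known changes.

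A value written as at least N-fold sets the mean of the measured group against the background level of the arrays of the other group, with means of log2 signals. Replicates of 1 group correlated at 0.937 to 0.946 over the probe sets, and no 2 arrays were identical. The labels call the replicates biological and do not say how far cultures were grown apart, and p-values measure the spread between these arrays. Named genes were the largest rises and falls whose groups did not overlap, the key member and the largest changes of each list, the genes with the most opposed probe sets and the cell type markers, while other genes were chosen after their values were seen. The members and lists were chosen with earlier results of these data known. Promoters came from RefSeq on GRCh38.p14 and matched 10029 of the tested genes, and gene types and lengths came from RefSeq too. Alternatives changed the scaling, filter, low signals, variance model, arrays, thresholds, probe set, pairing and replicates. Figures were drawn with matplotlib 3.10.9 in Python 3.11.15.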

Additional observations from a re-analysis of the deposited data

How the results depend on the processing

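The number of genes that rose or fell stayed within 1.5 times of 3775 and 3380 under every alternative except 3. With centred arrays 2054 rose and 5184 fell, with a threshold of 2-fold 1653 rose and 1214 fell, and with probe sets counted in place of genes 8463 rose and 6141 fell. Leaving out 1 array at a time gave 3484 to 3598 rises and 3112 to 3249 falls. A replicate block gave 3750 rises and 3352 falls and changed the call of none of the 230 tested genes named above with a value. It was not the main fit because arrays with the same number did not deviate together, with correlations of 0.106, -0.0499 and -0.0367.

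Of these 230 genes, 187 kept their direction and call under every alternative other than the 2-fold threshold. With centred arrays the log2 difference changed sign for CDKN1B (-0.039), KRT8 (-0.073), DNMT3A (-0.10), CASP9 (-0.11), PSAT1 (-0.15), NFE2L2 (-0.28), STAG1 (-0.29), LAMP1 (-0.30), HIF1A (-0.30), AXIN2 (-0.34) and RPS6 (-0.34), which is what a uniform shift of 0.39 does to small positive differences. Quantile normalization turned RPS6 (-0.026), GAPDH (0.016) and TFRC (0.077). Averaging the probe sets of a gene turned NFE2L2 (-0.048), RPS6 (-0.062), LAMP1 (-0.19), PTPRO (-0.31), AXIN2 (-0.36), GAPDH (0.071), SRSF1 (0.094), SRF (0.14) and HNRNPA2B1 (0.65). Probe sets with no letter suffix turned NDUFV3 (0.11), NDUFB7 (0.31, read near background), HNRNPA2B1 (3.21) and HNRNPD (3.66). On leaving out 1 array at a time, RPS6 ranged from -0.031 without SS replicate 3 to 0.10 without SS replicate 2, SRF from -0.092 without SS replicate 1 to 0.053 without SS replicate 3, and GAPDH from -0.098 without SS replicate 3 to 0.044 without SS replicate 1. The rise of KRT8 was not called without C replicate 3 (0.30) or SS replicate 3 (0.22).

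The number of arrays, 3 a group, limits the precision. Signals under the background level hold only a bound, and a limit at the top of the scale was not tested.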
